A study of Mus musculus with 6 samples.

Results

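The nuclear-encoded genes of the mitochondrial respiratory chain and of ATP synthase were followed in cultured neural stem cells of aged and young mice. Members were taken by symbol (Nduf, Sdh a to d, Uqcr, Cyc1, Cox4 to Cox8 and Atp5 genes), which gave 91 of the 17006 genes in the tables. They comprised 36 subunits of complex I, 7 complex I assembly factors, 4 subunits of complex II, 9 of complex III, 18 genes of complex IV (with the paralogues Ndufa4 and Ndufa4l2), 15 of complex V, and Atp5s and Atp5sl, which are not subunits. The 13 subunits encoded by mitochondrial DNA were not analysed here.

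The libraries came from primary neural stem cells of C57BL/6 mice, taken from the subventricular zone, a neurogenic region at the wall of the lateral ventricles. The aged group came from mice of 15 to 18 months (3 libraries) and the young group from mice of 2 months (3 libraries). The labels name no genetic change and no agent. Both groups used tissue of 5 mice pooled for dissociation, and both were kept in the initial proliferation medium before total RNA was taken, so the values describe cultured cells. Nothing in the labels says that the libraries of a group were separate cultures or pools of mice, so p-values measure only the spread between these libraries.

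The respiratory chain passes electrons from NADH (complex I) and succinate (complex II) through ubiquinone, complex III and cytochrome c to oxygen at complex IV, and pumps protons that drive ATP synthase (complex V). Apart from complex II, each complex joins subunits made in the cytosol to subunits made inside the mitochondrion. Several subunits of complex IV exist as a widely expressed isoform and as an isoform found mainly in heart and muscle, lung or testis. Neural stem cells are known for relying on glycolysis, with oxidative phosphorylation gaining weight as they differentiate.

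Values are FPKM, fragments per kilobase of transcript scaled to library size, so levels can be compared between genes. Steps in the low values put the depth at about 5300000 to 5480000 reads a library. The 9 neural stem and progenitor markers were present in every library, summing to 5530, 5527 and 5701 FPKM in aged and 5759, 5681 and 5589 FPKM in young libraries. No library lacked the labelled cell type by these markers, Gfap being the lowest of the 9 at 3.39 to 4.86 FPKM. Genes were tested with limma on log2(FPKM + 1) where the mean reached 1 FPKM, which kept 11912 genes and 88 of the 91 members. The 3 members under that limit, Cox4i2 (mean 0.352 FPKM), Ndufa4l2 (0.510 FPKM) and Cox6a2 (0.893 FPKM), are tissue-type isoforms. Just inside it lay Cox8b (1.14 FPKM) and Cox7a1 (1.70 FPKM).

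Regulatory sequence of these genes is shown for the widely expressed and the muscle-type partner of 2 complex IV subunits, and for Cox6a1, the most abundant complex IV member, because the partners differ so far in level. RefSeq sequence of GRCm38.p6 was found for 75 members, as windows of 250 bases before to 50 after the gene start. Each line below gives the longest stretch of the 250 bases before the start that holds no annotated exon. For Cox7a2 the start used lies inside the listed gene, which runs from 79755241 to 79771422. Capitals mark matches on either strand to the NRF1 motif (the 2 longest runs of capitals in Cox6a1, whose sixth base is free) and to CCGGAAG (ETS factors such as GABPA), AAGATGGC (YY1), GGGCGG (SP1) and TATAAA (a core promoter element).
Cox6a1, chr5:115348982-115349129, minus strand: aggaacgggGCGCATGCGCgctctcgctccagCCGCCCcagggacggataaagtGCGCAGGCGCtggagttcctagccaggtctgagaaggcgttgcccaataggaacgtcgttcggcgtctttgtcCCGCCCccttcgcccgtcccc
Cox7a2, chr9:79759879-79760103, minus strand: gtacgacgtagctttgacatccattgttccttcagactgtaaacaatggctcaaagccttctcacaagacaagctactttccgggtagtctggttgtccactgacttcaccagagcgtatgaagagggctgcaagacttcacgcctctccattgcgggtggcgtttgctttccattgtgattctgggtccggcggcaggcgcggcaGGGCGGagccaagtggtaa
Cox7a1, chr7:30183921-30184143, plus strand: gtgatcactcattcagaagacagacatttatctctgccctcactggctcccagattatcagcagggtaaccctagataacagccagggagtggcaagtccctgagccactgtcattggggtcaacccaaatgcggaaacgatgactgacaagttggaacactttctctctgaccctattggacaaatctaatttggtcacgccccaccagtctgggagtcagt
Cox8a, chr19:7217617-7217866, minus strand: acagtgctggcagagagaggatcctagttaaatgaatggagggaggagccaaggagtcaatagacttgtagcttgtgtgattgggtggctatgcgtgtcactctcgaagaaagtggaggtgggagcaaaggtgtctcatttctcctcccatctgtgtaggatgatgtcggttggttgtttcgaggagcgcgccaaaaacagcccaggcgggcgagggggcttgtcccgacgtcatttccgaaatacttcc
Cox8b, chr7:140900447-140900696, minus strand: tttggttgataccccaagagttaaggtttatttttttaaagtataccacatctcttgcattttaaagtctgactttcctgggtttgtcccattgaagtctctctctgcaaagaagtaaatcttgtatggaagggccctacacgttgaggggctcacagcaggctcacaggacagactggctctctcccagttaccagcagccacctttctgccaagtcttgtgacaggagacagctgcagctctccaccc

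The stretch of Cox6a1 held 2 separate NRF1 matches and 2 SP1 matches on the other strand, that of Cox7a2 an SP1 match, and those of Cox7a1, Cox8a and Cox8b none of these letters. Outside the printed stretches, the whole windows of Cox6a1 and Cox8a also held the ETS letters, and that of Cox8b held TATAAA. Over the whole windows the NRF1 motif occurred in 19 of 75 members (25.3%), against 9.48% of all 13252 genes with a window. YY1 letters occurred in 14.7% of members and 4.44% of all genes, and ETS letters in 22.7% and 16.6%. SP1 letters were found in 44.0% of members against 63.0% of all genes, and TATAAA in 8% against 9.81%. A match is a run of letters and not a shown binding site. Another shared feature of position was a protein-coding gene that starts on the other strand within 500 bases, found for 30 of 91 members (33.0%) and for 11.9% of the genes in the tables that could be matched to the annotation. The median log2 change between the ages was 0.04 in members with the NRF1 letters and 0.02 in members without. It was 0.04 with and 0.0025 without the ETS letters, 0.02 with and 0.02 without those of YY1, 0.02 with and 0.02 without those of SP1, and 0.03 with and 0.02 without TATAAA.

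One library stood apart for these genes before any comparison of age. The second aged library had the lowest value of all 6 libraries in 42 of the 88 tested members, and the lowest of the 3 aged libraries in 65. Its median log2 deviation from the other 2 aged libraries was -0.09 over the members, and 76 of 88 lay below 0. Among the other tested genes that median was 0.01. The deviation followed transcript length in both sets of genes. Members under 700 bases had a median of -0.13 and those of 1500 bases or more a median of -0.05, while the other tested genes had -0.12 under 700 bases and 0.02 at 1500 bases or more. Transcripts under 700 bases made up 39.8% of the tested members but 3.01% of all tested genes. The part of transcript length in the results below was tested only by removing each library's length trend, an alternative chosen after the data had been seen.

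**Figure D1:**
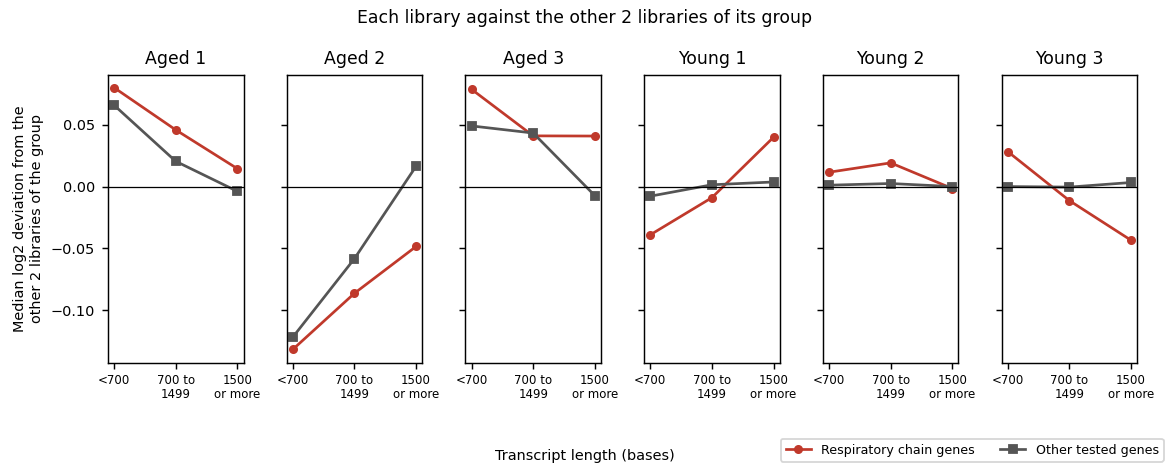
Median log2 deviation of each library from the other 2 libraries of its group (vertical axis), by transcript length in bases (horizontal axis), for the 88 tested respiratory chain genes (circles) and the other tested genes (squares). Under 700 bases the second aged library lies lowest, at -0.13 for members and -0.12 for other genes. At 1500 bases or more it lies at -0.05 for members and, as the highest library, at 0.02 for other genes.

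The summed level of the respiratory chain transcripts overlapped between the ages. The 91 members summed to 4.14%, 3.94% and 4.13% of all FPKM in aged libraries and to 4.03%, 4.08% and 4.06% in young libraries. The second aged library was the lowest of the 6 and the other 2 aged libraries were the highest, and the range in aged libraries enclosed that in young libraries. By limma with Benjamini-Hochberg adjustment, 0 of 88 tested members passed an adjusted p of 0.05, against 0.722% of all tested genes. At an unadjusted p under 0.05 there were 3 members (3.41%), against a background of 11.9%. Of these, 2 were higher in aged libraries (background 6.3%) and 1 was lower (background 5.55%). The 3 aged and 3 young values did not overlap in 8 members (9.09%), against 17.6% of tested genes (8.98% higher and 8.58% lower in aged libraries). Those 8 were Ndufa9, Ndufv1, Sdhd, Uqcr10 and Cox7a1, higher in aged libraries, and Ndufb5, Ndufaf2 and Ndufaf5, lower in aged libraries.

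The limma intervals were narrow for most members. They measure only the spread between these libraries, so they do not bound a change with age. The 95% interval of the log2 change lay within a 1.2-fold change in either direction (log2 between -0.26 and 0.26) for 75 of 88 members (85.2%), against 49.8% of all tested genes. Members were also more abundant, with a median of 158.1 FPKM against 12.5 FPKM over all tested genes, and the part of abundance in the narrower intervals was not tested. The median log2 change, aged minus young, was 0.02 over the members and 0.00 over all tested genes. By complex it was 0.02 for complex I, 0.04 for complex II, 0.04 for complex III, 0.01 for complex IV and 0.03 for complex V. The assembly factors of complex I had a median of -0.07.

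**Figure D2:**
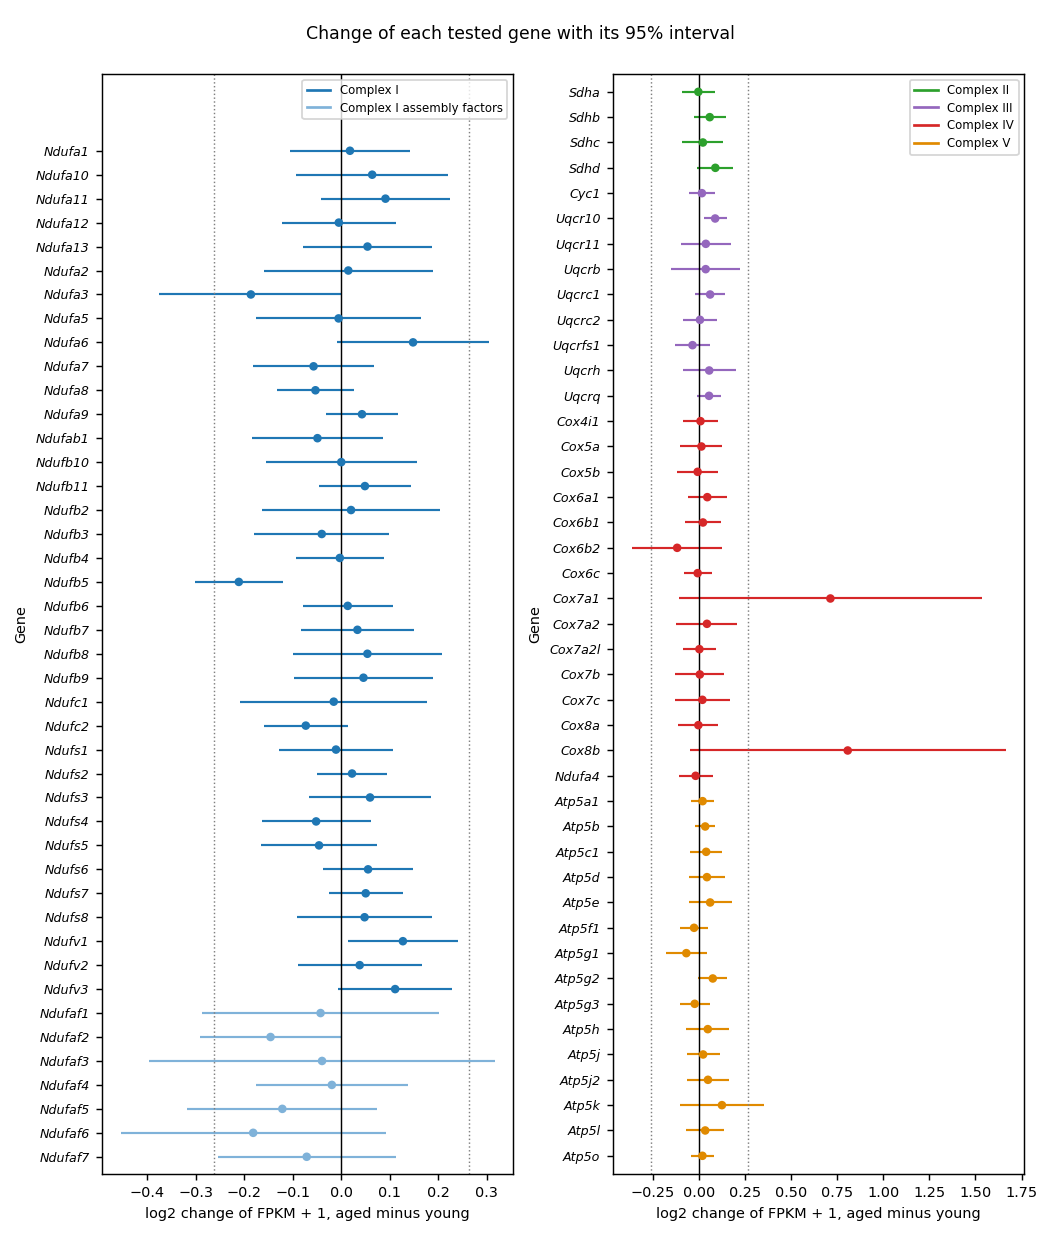
Log2 change of FPKM + 1, aged minus young (horizontal axis), for each tested subunit and complex I assembly factor (rows), with bars for the 95% interval from limma and dotted lines at a 1.2-fold change. Ndufb5, at -0.21, is the complex I subunit farthest from 0, and the wide bars of Cox7a1 and Cox8b belong to transcripts of a few FPKM.

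Without the second aged library the picture shifted upwards. That library was singled out for its low values in these genes, so leaving it out had to raise the aged mean of most members. The counts that follow are a description. In that fit, 17 of 88 tested members were higher in aged libraries at an unadjusted p under 0.05 (background 6.59%). Another 3 were lower (background 5.58%), where 12.2% of all genes were on either side. The 17 were Ndufb11 and Ndufs7 of complex I, Uqcrh, Uqcr10, Uqcrc1, Uqcrq, Uqcrb and Uqcr11 of complex III, Cox6a1, Cox7c, Cox5a and Cox7a2 of complex IV, and Atp5k, Atp5j2, Atp5c1, Atp5b and Atp5g2 of complex V. Ndufb5, Ndufc2 and Atp5sl were the 3 lower ones. Log2 changes of Cox6a1, Cox7c and Uqcr11 were 0.10 each in that fit, against 0.04, 0.02 and 0.04 with all libraries. Only Atp5k passed the adjusted threshold in that fit (limma adjusted p = 0.0468, against a background of 0.587% of genes called). Median log2 changes became 0.06 for the members together, 0.06 for complex I, 0.06 for complex II, 0.09 for complex III, 0.05 for complex IV, 0.06 for complex V and -0.05 for the assembly factors. With all 6 libraries and each library's length trend removed, 0 members were higher (background 5.99%) and 3 lower (background 6.08%) at an unadjusted p under 0.05, against 12.1% of all genes on either side. The 3 were Ndufb5, Ndufaf2 and Ndufa3, of which Ndufb5 passed the adjusted threshold (background 0.986%).

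**Figure D3:**
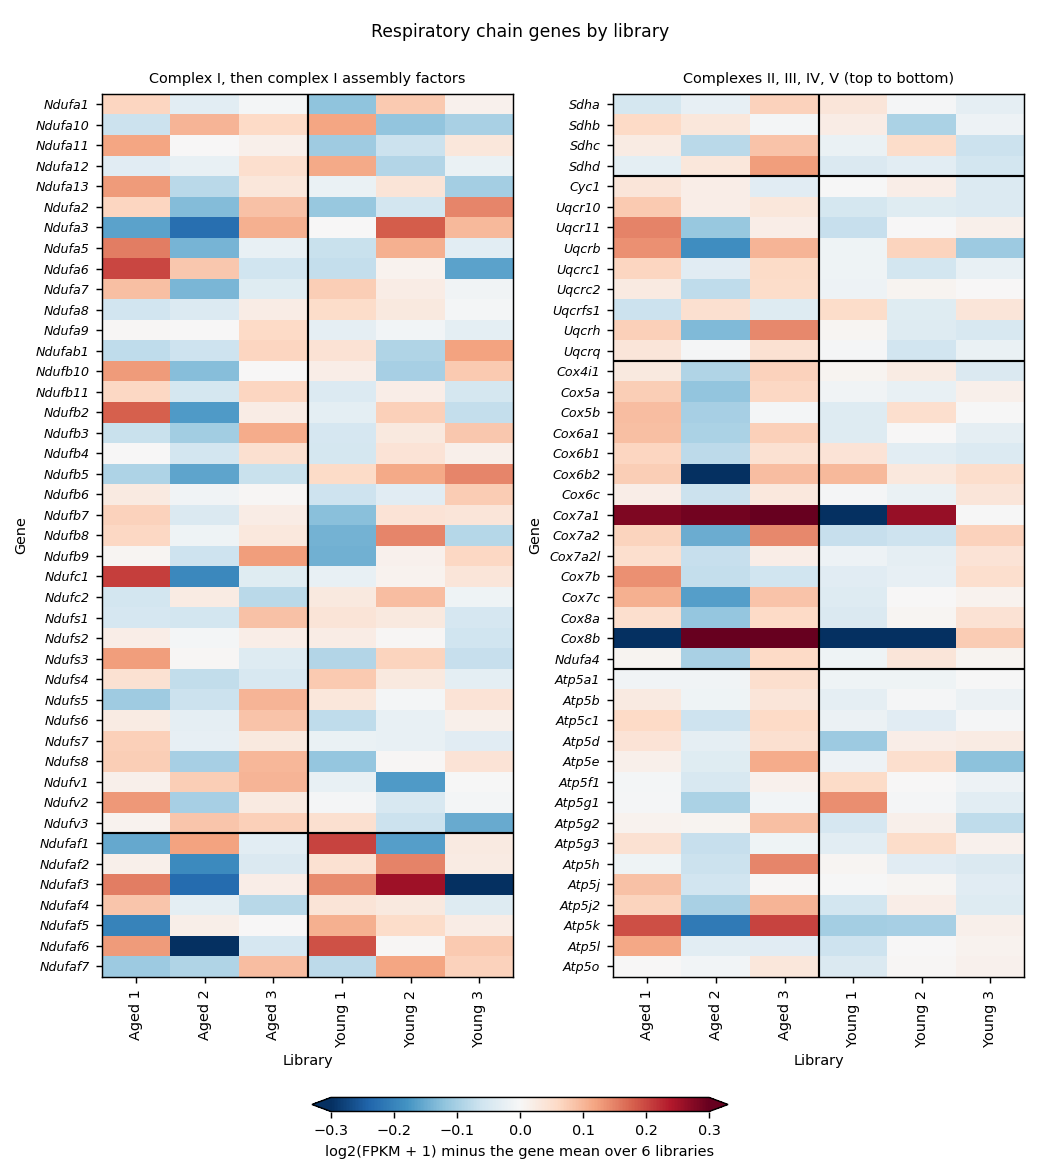
Each row is a tested gene (Atp5s and Atp5sl are not drawn) and each column a library. Colour gives log2(FPKM + 1) minus the mean of that gene over the 6 libraries, from blue (-0.3 or less) to red (0.3 or more), with horizontal lines between complexes and a vertical line between aged and young. The second aged column is the bluest, being lowest of the 6 in 42 of all 88 tested members.

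Complex I oxidises NADH and is the largest of the chain. Its subunits had means of 24.1 to 381 FPKM, and 22 of 36 had a log2 change above 0 and 14 below. Ndufc2, an accessory subunit of the membrane arm, was the most abundant, at 366, 387 and 360 FPKM in aged libraries and 388, 406 and 377 FPKM in young libraries. Ndufb8, another membrane arm subunit, came next by mean, at 220, 209 and 216 FPKM in aged libraries and 191, 233 and 199 FPKM in young libraries. Both genes overlapped between the ages.

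Ndufb5, an accessory subunit of the membrane arm, was the member nearest to the threshold. It had 90.1, 86.0 and 91.7 FPKM in aged libraries, against 99.99, 104.1 and 106.4 FPKM in young libraries. Every aged value lay below every young value. Its log2 change of -0.21 ± 0.04 (SE) had a limma adjusted p of 0.0629, so the gene did not pass. It passed in 5 of the 17 alternatives, namely the filter of 5 FPKM (adjusted p = 0.0453), rescaling to TPM (0.0346), quantile normalization (0.0469), limma's robust option (0.0481) and removal of the length trend (0.0157). The adjusted p values over all limma alternatives ran from 0.0157 to 0.225. Its mean was 0.863 of the young mean, at 89.3 ± 2.94 FPKM in aged and 103.5 ± 3.26 FPKM in young libraries (SD, n = 3 each). The gene lies on chromosome 3 from 32737057 to 32751559 (RefSeq GRCm38.p6), and 616 of its exonic bases also belong to exons of Mrpl47, a mitochondrial ribosomal protein gene on the opposite strand. The strand setting of the counting is not given, so reads of that stretch may belong to either gene. Mrpl47 had 15.7, 21.2 and 19.4 FPKM in aged libraries and 18.1, 21.8 and 22.0 FPKM in young libraries, which overlapped (log2 change -0.14 ± 0.11 (SE), limma adjusted p = 0.718).

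The catalytic core of complex I in the matrix arm has 7 nuclear-encoded subunits here. Ndufv1, the subunit that binds NADH and flavin, had 107.3, 111.7 and 113.9 FPKM in aged libraries, against 104.5, 94.3 and 106.1 FPKM in young libraries. All aged values were above all young values. Its log2 change of 0.13 ± 0.05 (SE) did not pass (limma adjusted p = 0.362) and was 0.07 without the second young library. Of the other 6 core subunits, 5 had a log2 change above 0 and Ndufs1 one of -0.01. Among 9 accessory subunits of the matrix arm the median log2 change was 0.01, and among 19 of the membrane arm it was 0.01. Ndufab1, the acyl carrier protein that sits in both arms, had a log2 change of -0.05.

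The complex I assembly factors, which help to build the complex and do not stay in it, were much less abundant than the subunits, with means of 6.56 to 30.8 FPKM. All 7 had a log2 change below 0, from -0.18 to -0.02, while 0 of 7 reached an unadjusted p of 0.05 (background 11.9%). Ndufaf6 had the largest, -0.18 ± 0.12 (SE), at 9.97, 6.87 and 8.70 FPKM in aged libraries and 10.4, 9.06 and 9.60 FPKM in young libraries, with overlap. Without the second aged library it was -0.05. Ndufaf2, the most abundant factor, had 31.1, 26.8 and 29.8 FPKM in aged libraries and 31.8, 34.2 and 31.3 FPKM in young libraries. Its groups did not overlap (log2 change -0.15, limma adjusted p = 0.423), and its exons share bases with a long non-coding RNA gene on the opposite strand. A separate list of 7 assembly factors of complex I with other names, such as Ecsit and Nubpl, had log2 changes of 0.02 to 0.24, also with 0 of 7 at an unadjusted p under 0.05. Atp5sl, which also takes part in complex I assembly despite its name, had a log2 change of -0.20 ± 0.16 (SE, limma adjusted p = 0.709) with overlapping groups. It was -0.38 without the second aged library (limma adjusted p = 0.277) and -0.04 without the third (limma adjusted p = 0.960).

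Complex II, succinate dehydrogenase, is encoded wholly in the nucleus and also works in the citric acid cycle. Its 4 subunits had means of 105 to 165 FPKM. Sdhd, a membrane anchor, had 102.6, 107.2 and 114.3 FPKM in aged libraries and 101.5, 102.3 and 100.7 FPKM in young libraries, which did not overlap. The log2 change was 0.09 ± 0.04 (SE, limma adjusted p = 0.483), and 0.05 without the third aged library. Sdhc, the other anchor and the most abundant subunit, had 167, 156 and 175 FPKM in aged libraries and 162, 171 and 157 FPKM in young libraries. Sdha, the flavoprotein that oxidises succinate, came next by mean, at 154, 157 and 168 FPKM in aged libraries and 164, 159 and 157 FPKM in young libraries. Both overlapped.

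Complex III passes electrons from ubiquinol to cytochrome c. Of its 9 members, 8 had a log2 change above 0. The Rieske protein Uqcrfs1 was the exception at -0.04. Uqcr10, a small accessory subunit on chromosome 11 (4701968 to 4704344), had 303.9, 291.7 and 294.6 FPKM in aged libraries, against 277.3, 280.8 and 279.8 FPKM in young libraries. The groups did not overlap. Its mean was 296.7 ± 6.38 FPKM in aged and 279.3 ± 1.79 FPKM in young libraries (SD, n = 3 each). By limma that was 0.09 ± 0.03 (SE) on the log2 scale, with an adjusted p of 0.258. With the length trend removed it was 0.05 (limma adjusted p = 0.659), and Uqcr10 no longer reached an unadjusted p of 0.05. The accessory subunits Uqcrq and Uqcr11 were the most abundant. Uqcrq had 423, 412 and 426 FPKM in aged libraries and 412, 396 and 407 FPKM in young libraries, with overlap. Uqcr11 had 396, 330 and 362 FPKM in aged libraries and 341, 358 and 361 FPKM in young libraries.

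Complex IV, cytochrome c oxidase, was represented mainly by its widely expressed isoforms. Cox6a1 had 779, 686 and 769 FPKM in aged libraries and 713, 733 and 718 FPKM in young libraries. Cox8a had 755, 673 and 760 FPKM in aged libraries and 708, 733 and 752 FPKM in young libraries. In both the second aged library was the lowest of the 6 and the groups overlapped. Of 15 tested members, 10 had a log2 change above 0 and 5 below. The 10 include Cox8b, which reached the limit of 1 FPKM only through the aged libraries. Cox7c, at 605 ± 61.5 FPKM in aged and 595 ± 10.7 FPKM in young libraries (SD, n = 3 each), is uncertain because the tables also list Gm10012. That copy's transcript matched Cox7c in 233 of 234 aligned bases and stood at 674 ± 18.6 FPKM in aged and 671 ± 12.0 FPKM in young libraries (SD, n = 3 each), so the counting may have split reads between them.

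Tissue-type isoforms other than Cox6b2 were close to absent at both ages. Cox6a2, a heart and muscle form, had 1.43, 0.57 and 0.85 FPKM in aged libraries and 0.28, 1.67 and 0.56 FPKM in young libraries, or 1 to 6 estimated reads. Cox7a1, the muscle form of subunit 7A, had 2.05, 2.07 and 2.55 FPKM in aged libraries and was listed at 0, 2.01 and 1.51 FPKM in young libraries. Its groups did not overlap in FPKM, but these values stand for 4 to 5 estimated reads in aged and 0 to 4 in young libraries, and the share of subunit 7A did overlap (1.23% to 1.44% in aged, 0% to 1.32% in young libraries). Cox8b, the muscle form of subunit 8, had 0.53, 1.60 and 3.15 FPKM in aged libraries and was listed at 0, 0.52 and 1.03 FPKM in young libraries. Its log2 change of 0.81 ± 0.38 (SE, limma adjusted p = 0.448) was the largest of complex IV. That change rests on 1 to 6 estimated reads in aged and 0 to 2 in young libraries. Cox8b reached the limit of 1 FPKM only through the aged libraries (means of 1.76 FPKM in aged and 0.517 FPKM in young libraries). Its direction and rank were therefore partly set by that filter.

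Cox4i2, the lung-type form of subunit 4 that low oxygen induces, had 0.53, 0.27 and 0.79 FPKM in aged libraries and was listed at 0.52, 0 and 0 FPKM in young libraries. Against Cox4i1 it made up at most 0.113% of subunit 4 in any library. Ndufa4l2, likewise induced by low oxygen, had 0.58, 0.58 and 0.77 FPKM in aged libraries and 0.75, 0.19 and 0.19 FPKM in young libraries, beside 377 to 420 FPKM of Ndufa4. Both overlapped between the ages, and 3 reads would correspond to about 0.753 to 0.779 FPKM for Cox4i2 and 0.586 to 0.606 FPKM for Ndufa4l2, so a difference at this level was not detectable at this depth. That limit covers counting error only. Striated muscle markers summed to 2.20, 1.52 and 2.66 FPKM in aged libraries and 1.96, 1.23 and 2.07 FPKM in young libraries.

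Cox6b2, the testis-type form of subunit 6B, was the one tissue-type isoform with a clear level. It lies on chromosome 7 (4751792 to 4753094) and had 26.2, 19.3 and 26.5 FPKM in aged libraries and 26.6, 25.4 and 25.8 FPKM in young libraries. The groups overlapped (log2 change -0.12 ± 0.11 (SE), limma adjusted p = 0.743). As a share of subunit 6B it made up 4.83%, 3.97% and 4.95% in aged libraries and 4.98%, 4.99% and 5.10% in young libraries. These shares did not overlap, though the nearest aged and young values were 4.95% and 4.98%. The aged mean was 4.58 ± 0.531%, or 4.89% without the second library, against 5.02 ± 0.063% in young libraries (SD, n = 3 each). Over all tested genes, 17.6% did not overlap in FPKM, and the counting error of the shares was not estimated. Shares are given as a description, with no test. Testis markers, Cox7b2 and Cox8c were not analysed here.

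**Figure D4:**
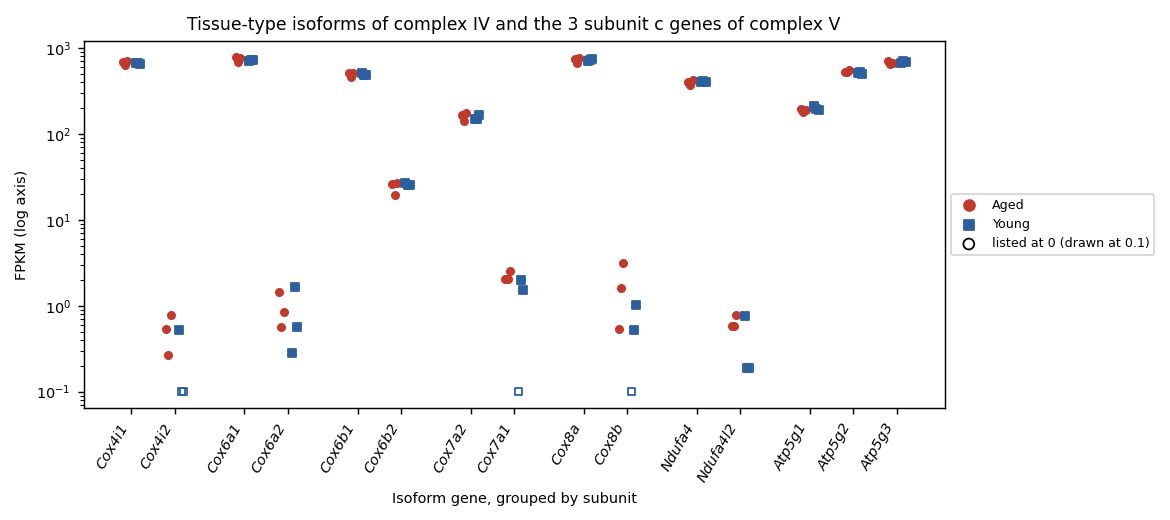
FPKM of isoform genes in each library on a log axis, with aged libraries as circles left of young libraries as squares, and values listed at 0 drawn open at 0.1. The widely expressed isoforms lie at 141.8 FPKM or more and their tissue-type partners, apart from Cox6b2 at 19.3 to 26.6 FPKM, at 3.15 FPKM or less.

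Complex V, ATP synthase, held the most abundant member of the chain. Atp5b, the catalytic beta subunit of the F1 head, had 1031, 1003 and 1038 FPKM in aged libraries and 993, 1010 and 999 FPKM in young libraries, with overlap. All 5 subunits of F1 and its central stalk had a log2 change between 0.02 and 0.06. Atp5k, which encodes the small membrane subunit e, had the largest change of the complex. It had 295.9, 223.1 and 297.6 FPKM in aged libraries and 240.9, 241.1 and 261.4 FPKM in young libraries. The second aged library was the lowest of the 6 and the other 2 aged libraries the highest. The log2 change was 0.12 ± 0.10 (SE, limma adjusted p = 0.709) with all libraries and 0.26 ± 0.04 (SE, limma adjusted p = 0.0468) without that library. Without the first aged library it was 0.06 (limma adjusted p = 0.913), and without the third it was 0.05 (limma adjusted p = 0.917). Its transcript of 371 bases is among the short ones.

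Subunit c, which forms the rotor ring, is made from 3 genes that encode the same mature protein with different import signals. Atp5g3 was the most abundant of them, with 707, 653 and 679 FPKM in aged libraries and 670, 712 and 691 FPKM in young libraries. Atp5g2 had 530, 529 and 560 FPKM in aged libraries and 508, 531 and 499 FPKM in young libraries, which overlapped. Its share of the 3 genes was 37.1%, 38.8% and 39.1% in aged libraries and 36.5%, 37.0% and 36.2% in young libraries. These shares did not overlap, though the nearest aged and young values were 37.1% and 37.0%. Their means were 38.3 ± 1.11% in aged and 36.6 ± 0.404% in young libraries (SD, n = 3 each), with no test. Atp5g1 made up 13.4 ± 0.105% in aged and 14.2 ± 1.01% in young libraries, and Atp5g3 48.2 ± 1.05% in aged and 49.3 ± 1.00% in young libraries (SD, n = 3 each). Both shares overlapped.

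Genes that serve the chain without matching the symbol rule were read from lists. Of 10 assembly factors of complexes II and III, 0 passed the adjusted threshold (background 0.722%) and 3 had an unadjusted p under 0.05 (background 11.9%). Sdhaf4, which helps to mature succinate dehydrogenase, came closest, at 19.5, 18.2 and 20.8 FPKM in aged libraries and 14.6, 15.4 and 13.5 FPKM in young libraries. The groups did not overlap (log2 change 0.40 ± 0.07 (SE), limma adjusted p = 0.0508). Sdhaf2, which adds the flavin to Sdha, had 10.6 ± 0.595 FPKM in aged and 9.14 ± 0.690 FPKM in young libraries (SD, n = 3 each, limma adjusted p = 0.381). Uqcc1 was the third and was lower in aged libraries. It had 17.4 ± 0.626 FPKM in aged and 19.2 ± 0.628 FPKM in young libraries (SD, n = 3 each, limma adjusted p = 0.392).

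Among 22 assembly factors of complex IV, 0 passed (background 0.722%), and 2 were higher (Cox11 and Surf1) and 2 lower (Pet117 and Taco1) in aged libraries at an unadjusted p under 0.05 (background 6.3% higher and 5.55% lower). Cox11, a copper carrier, had 12.3 ± 1.86 FPKM in aged and 9.06 ± 1.27 FPKM in young libraries (SD, n = 3 each, limma adjusted p = 0.235). Pet117 varied widely, at 5.12, 8.95 and 2.59 FPKM in aged libraries and 12.87, 6.87 and 10.46 FPKM in young libraries. Of 6 further genes of complex V, 0 passed the adjusted threshold (background 0.722%) and 2 had an unadjusted p under 0.05 (background 11.9%). These were 2010107E04Rik and Usmg5, both of which encode small proteins of the membrane part. 2010107E04Rik had 223.8, 209.7 and 222.5 FPKM in aged libraries and 194.0, 198.6 and 202.9 FPKM in young libraries, with no overlap (log2 change 0.14 ± 0.04 (SE), limma adjusted p = 0.157). Usmg5 had a log2 change of 0.12 ± 0.04 (SE, limma adjusted p = 0.313).

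Mobile electron carriers and enzymes of ubiquinone supply, among them Cycs and the Coq genes, had 0 of 18 tested genes past either threshold, with a median log2 change of -0.02. Nuclear regulators of mitochondrial genes, including Ppargc1a, Nrf1, Gabpa and Tfam, had 0 of 15 past the adjusted threshold (background 0.722%) and 1 at an unadjusted p under 0.05 (background 11.9%). That gene was Polg2, an accessory subunit of the mitochondrial DNA polymerase, at 3.31 ± 0.287 FPKM in aged and 2.47 ± 0.178 FPKM in young libraries (SD, n = 3 each, limma adjusted p = 0.293).

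Genes of mitochondria that low oxygen is known to induce were read from a further list. Of 6 listed, 1 passed the adjusted threshold (background 0.722%) and 5 had an unadjusted p under 0.05 (background 11.9%, or 6.3% higher), all higher in aged libraries, with a median log2 change of 0.21. The one that passed was Bnip3, a receptor for mitochondrial removal. It had 15.97, 16.41 and 16.62 FPKM in aged libraries and 11.4, 10.4 and 7.83 FPKM in young libraries (log2 change 0.69 ± 0.11 (SE), limma adjusted p = 0.0385). Bnip3 passed in 10 of 17 alternatives. The 7 in which it did not pass included those without a filter on low values (limma adjusted p = 0.103), without limma's trend (0.135), without any 1 of the aged libraries (0.117, 0.0999 and 0.138 for the first to the last) and without the second young library (0.0926). Pdk1, a kinase that inhibits pyruvate dehydrogenase, had 7.19, 8.64 and 8.01 FPKM in aged libraries and 3.94, 4.53 and 5.60 FPKM in young libraries (limma adjusted p = 0.0536). Neither gene overlapped between the ages. Earlier results of these data already showed Bnip3 among the higher genes, so it is no independent support. The whole list was chosen with earlier results known, so its counts are no independent support either. Set beside the listed genes, Cox4i2 and Ndufa4l2, the low-oxygen isoforms among the members, stayed under the filter of 1 FPKM as described above.

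Markers of other cell types were also read. Summed FPKM of 7 fibroblast and pericyte markers was 3.11, 3.45 and 4.08 in aged libraries and 1.16, 1.02 and 0.93 in young libraries. Most of the aged sum was Col1a1, with means of 2.46 FPKM in aged and 0.423 FPKM in young libraries. Col1a1 was the only marker of this list tested, reached the limit of 1 FPKM only through the aged libraries, and passed (limma adjusted p = 0.0107). Col1a2 and Col3a1 also had higher means in aged libraries, while Acta2, Dcn and Rgs5 had lower ones. Pdgfrb was at 0 in 5 of the 6 libraries. The 6 neuroblast and neuron markers summed to 19.4, 16.3 and 19.0 FPKM in aged and 14.2, 12.8 and 13.4 FPKM in young libraries, with Stmn2 at 0 in 5 of the 6. Sums overlapped between the ages for microglia (4 markers, 2.6 to 4 FPKM), endothelium (5 markers, 2.29 to 3.97 FPKM) and ependyma and choroid plexus (4 markers, 20.7 to 27.8 FPKM). Single markers in these sums went both ways. Endothelial Egfl7 (limma adjusted p = 0.147) and ependymal Enpp2 (limma adjusted p = 0.181) were higher in aged libraries without overlap. Endothelial Flt1, under the limit of 1 FPKM, was lower without overlap. The other markers of these lists overlapped. The part of other cells in the values of the respiratory chain was not tested. In bulk libraries, fewer cells of a type and less RNA per cell cannot be told apart.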

How the data were processed

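Bulk RNA sequencing of 3 aged and 3 young libraries was deposited as 1 table per library. The values are FPKM made by the authors, with 2 decimals and 1 value per gene, per the file headers. Total RNA was depleted of rRNA before library making, per the labels' protocols, and the submitters' processing notes list TopHat, Cuffdiff and the mm10 build without versions. The annotation, strand setting and normalization between libraries are not given in the sources used here. FPKM are not counts, so no count test was run.

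Differences were tested in R 4.3.3 with limma 3.58.1 (lmFit, eBayes with a trend, no covariates, two-sided) on log2(FPKM + 1) for the 11912 genes whose mean reached 1 FPKM, aged minus young, with Benjamini-Hochberg adjustment over all of them and a threshold of 0.05. The scale understates changes of low genes. Estimated reads were derived from steps in the low values and cover counting error only. The depth was chosen to bring values between 0.3 and 3.5 reads close to whole numbers. Of these, 76.1% to 78.8% were whole to within 0.15, a share partly set by that choice. Between 3.5 and 10.5 reads, a range not used for the choice, 55.9% to 58.7% were, where chance gives 30%. The total of estimated reads per library, 5300000 to 5480000, limits the precision of low genes. Motifs, overlapping exons and neighbouring starts were read from RefSeq and GENCODE tables of GRCm38, the mm10 assembly. Tables and plots were made in Python 3.11.15 (matplotlib 3.10.9, numpy 2.4.6, pandas 2.3.3).

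Named were members at an unadjusted p under 0.05, the 2 most abundant and the 1 most changed of each complex, all isoform sets and, of each gene list, called genes or up to 2 with the smallest p. Members and lists were chosen with earlier results of these data known. Further genes (Ndufaf2, Ndufaf5, Ndufa9, Cox7c, Gm10012, Mrpl47 and members named in counts) were named after their values were seen.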

Additional observations from a re-analysis of the deposited data

How the results depend on the processing

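The count of members past an adjusted p of 0.05 stayed at 0 in 11 of 17 alternatives and was 1 in the other 6. That 1 was Ndufb5 with the filter of 5 FPKM, rescaling to TPM, quantile normalization, limma's robust option and removal of the length trend, and Atp5k without the second aged library. At an unadjusted p under 0.05, the count of higher members was 1 with TPM, 0 without limma's trend and 0 with the length trend removed. The count of lower members was 3 with the filter of 5 FPKM, with TPM and with the length trend removed, and 2 with quantile normalization, median-of-ratios scaling and the robust option. Leaving out 1 library at a time gave 0 to 1 called, 2 to 17 higher and 1 to 5 lower members, and medians of -0.0021 to 0.055 for all members, -0.00033 to 0.063 for complex I, -0.14 to -0.051 for its assembly factors, 0.015 to 0.060 for complex II, -0.00012 to 0.091 for complex III, -0.022 to 0.053 for complex IV and 0.017 to 0.057 for complex V. The 17 came without the second aged library. Without the first or second young library, 4 and 5 members were higher, and 5 were lower without aged replicate 1, 3 without aged replicate 2, 3 without aged replicate 3 and 2 without young replicate 1. The causes were not tested. Isoform shares moved beyond their SD once, Ndufa4l2 in aged libraries, from 0.160% to 0.185% with 0.1 FPKM added to each isoform. Leaving out 1 of 3 libraries cannot shift a mean by as much as their SD, so those settings could not show a move. No direction of a called result reversed.

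Same-numbered libraries of the 2 ages had correlations of their deviations of 0.008, -0.072 and 0.108 over 11912 genes. Differently numbered libraries ran from -0.109 to 0.111. The values thus gave no sign of pairing by number, but they cannot show whether same-numbered libraries were prepared together. With the number as a replicate block, 0 members were called, 4 were higher and 3 lower at an unadjusted p under 0.05, and 22 of all genes were called in place of 86. Bnip3 and the marker Col1a1 did not pass under the block (limma adjusted p = 0.101 and 0.0643). Depth limits the tissue-type isoforms other than Cox6b2, which rest on 0 to 6 estimated reads a library.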
